A study of Mus musculus with 6 samples.

Results

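The respiratory chain subunits encoded in the nucleus were followed in mouse oocytes that lack Rpa1. The gene set holds the 84 of 49315 genes in the deposited table whose symbols name a subunit of complex I (37 genes, Nduf), complex II (4, Sdh), complex III (8, Uqcr), complex IV (18, Cox4 to Cox8) or complex V (17, Atp5). Symbols that end in -ps and a digit, 5 in all, were left out. The rule uses symbols alone, but it was chosen with earlier results of these data known. The names are not a perfect guide to the protein. They keep the pseudogene Atp5l2-ps, the ATP synthase coupling factor Atp5s, the supercomplex factor Cox7a2l and Ndufa4l2, a relative of Ndufa4, and they miss some subunits of other names. Among those are Ndufab1, the acyl carrier subunit of complex I, Cyc1, the cytochrome c1 of complex III, and Usmg5, a small subunit of complex V. Medians and sums of the complexes do not hold these 3. Ndufa4 is counted here under complex I by its name, although later work places its protein in complex IV.

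RNA was sequenced from fully grown germinal vesicle (GV) oocytes, which are immature eggs arrested with an intact nucleus. Libraries came from 3 Control mice and 3 mice with an oocyte-specific conditional knockout of Rpa1 (OcKO), a gene for the large subunit of the single-strand DNA binding complex RPA. All animals were 4 to 5 weeks old and had been primed with PMSG, a gonadotropin that drives follicle growth. Each library pooled around 20 oocytes of 1 mouse, freed of cumulus cells. The sources used here name neither the Cre line that deletes Rpa1 nor the genotype of the Control mice. The p-values below measure the spread between such pools from 3 mice a group. In such pools, a difference in the cells present and a difference in RNA per cell cannot be told apart.

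Complexes I and II pass electrons from NADH and succinate to ubiquinone, complex III passes them on to cytochrome c, and complex IV delivers them to oxygen. Complexes I, III and IV pump protons as they do so, and complex V (ATP synthase) makes ATP from the gradient. All 4 subunits of complex II are nuclear, while the other 4 complexes combine nuclear subunits with a few that are made inside the mitochondrion. Oocytes take up pyruvate and depend on oxidative phosphorylation for most of their ATP, and they store a very large number of mitochondria.

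Nuclear subunit genes are known targets of the transcription factors NRF1, GABP (an ETS factor also called NRF2) and YY1, so the windows around their starts were searched for the binding motifs. RefSeq (GRCm38.p6) held a 300-base window, from 250 bases before to 50 after the start, for 68 of the 84 genes. The NRF1 motif GCGCATGCGC, the ETS motif CCGGAAGT, the YY1 motif AAGATGGC and, for comparison, TATAAA were matched exactly on both strands. The NRF1 motif is its own reverse complement, no motif contains another, and matches of different motifs may share bases. The NRF1 motif stood in 5 of the 68 windows (7.35%), against 0.977% of all 27025 windows. The ETS motif also stood in 5 (7.35%), against 4.00% of all. The YY1 motif was in 9 (13.2%), against 2.88%, and in 8 of those 9 genes it lay on the gene's own strand, between 22 and 38 bases after the start. TATAAA was in 7 (10.3%), against 14.2%. At least 1 of the first 3 motifs was in 19 of the 68 windows (27.9%), against 7.57% of all windows. Median GC content was 57.3% in these windows and 52.7% in all. These are matches of letters, not measured binding.

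The lines below show windows with an NRF1 or ETS match and, without such a match, those of Sdhb and Ndufa4, genes that the results turn on. Each line runs 5′ to 3′ on the gene's strand and ends before the start, with the NRF1 motif in capitals in the first 4 (Cox6a1, Ndufa11, Atp5g2 and Atp5k) and the ETS motif, on either strand, in capitals in the next 3 (Uqcr11, Atp5h and Uqcrh). Sdhb and Ndufa4 are shown as the 100 bases before the start, since neither window held an exact match to NRF1, ETS or YY1.
Cox6a1: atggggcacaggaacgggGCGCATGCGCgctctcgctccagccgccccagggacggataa
Ndufa11: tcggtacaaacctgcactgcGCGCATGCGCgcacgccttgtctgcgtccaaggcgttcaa
Atp5g2: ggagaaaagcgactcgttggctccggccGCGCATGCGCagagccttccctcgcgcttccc
Atp5k: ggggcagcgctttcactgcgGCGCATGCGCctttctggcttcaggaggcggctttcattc
Uqcr11: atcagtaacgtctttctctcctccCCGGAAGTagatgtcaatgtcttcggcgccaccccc
Atp5h: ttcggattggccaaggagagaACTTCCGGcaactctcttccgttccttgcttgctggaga
Uqcrh: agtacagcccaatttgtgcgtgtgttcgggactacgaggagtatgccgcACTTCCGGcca
Sdhb: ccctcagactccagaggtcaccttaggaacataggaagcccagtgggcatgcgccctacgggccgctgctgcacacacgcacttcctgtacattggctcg
Ndufa4: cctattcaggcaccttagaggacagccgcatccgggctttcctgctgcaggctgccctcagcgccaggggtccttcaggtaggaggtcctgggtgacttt
In GRCm38.p6 these lie at chr5:115349079-115349138 (minus strand) for Cox6a1, chr17:56717682-56717741 (plus strand) for Ndufa11, chr15:102671058-102671117 (minus strand) for Atp5g2 and chr5:108434410-108434469 (minus strand) for Atp5k. The ETS windows lie at chr10:80406852-80406911 (minus strand) for Uqcr11, chr11:115419920-115419979 (minus strand) for Atp5h and chr4:116075071-116075130 (minus strand) for Uqcrh. The others lie at chr4:140961171-140961270 (plus strand) for Sdhb and chr6:11907451-11907550 (minus strand) for Ndufa4.

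Levels are given in CPM, a gene's share of a library's counts after TMM scaling of the library sizes, and levels of different genes are compared only after division by the exonic length in kb given with the deposited counts. On that scale the highest mean in Control oocytes belonged to Cox6a1, at 327 ± 173 CPM per kb (SD, n = 3), the somatic form of a small complex IV subunit. Cox8a followed at 242 ± 95.9 and the complex I accessory subunit Ndufa1 at 216 ± 136. Uqcr11, the smallest subunit of complex III by coding length, stood at 216 ± 146, and Cox6b1 at 195 ± 99.1. The spread of these 5 is wide because 1 Control library was far above the other two, as described below, and their order does not hold beyond it. Atp5a1, the alpha subunit in the head of ATP synthase, stood at 191 ± 19.1 CPM per kb, the highest of complex V. Sdhd, a membrane anchor of complex II, stood at 181 ± 23.9, and Ndufb11, a membrane arm subunit of complex I, at 171 ± 20.4. Among members with counts in Control, the lowest were Cox7a1, Ndufa4l2, Atp5s, Cox4i2 and Cox8c, from 0.0687 to 2.77 CPM per kb. Above these, Ndufb2 read 3.50 ± 1.93 and Atp5l 5.57 ± 1.31 CPM per kb. Their deposited exon models are 5628 and 6443 bases long, against coding lengths of 315 and 309 bases, so a level per length is low for both.

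Several subunits exist as a widespread form and a tissue-restricted form, and the oocytes held mainly the widespread one. Cox4i1 exceeded Cox4i2, the lung and hypoxia form, by a ratio of levels per kb of 33.9 over all libraries, 15.4 to 111 by library. Cox6a1 exceeded the heart and muscle form Cox6a2 (13.2 over all libraries, 10.01 to 17.7 by library). Cox7a2 exceeded the muscle form Cox7a1 by 74.5 over all libraries, with 0 counts of Cox7a1 in 2 libraries and 21.7 to 568 in the others. This ratio pools unlike groups, since Cox7a1 averaged 0.0687 CPM per kb in Control and 3.61 in OcKO. The ratio of Cox8a to the testis form Cox8c was 39.1 over all libraries, 18.8 to 577 by library. Cox6b2, known as the testis form, was the exception among these complex IV forms: Cox6b1 exceeded it by only 2.37 over all libraries, 2.08 to 2.73 by library, and this ratio varied least over the libraries among the 10 pairs compared. Ndufa4 and Ndufa4l2, given with complex I, lay near each other in OcKO only, at 64.9 and 48.0 CPM per kb. The 3 genes Atp5g1, Atp5g2 and Atp5g3, which encode the same mature c-ring protein of ATP synthase, were close to each other, with Atp5g1 over Atp5g2 at 1.33 and Atp5g2 over Atp5g3 at 1.30. Cox7a2 and Cox7a2l, the supercomplex factor, also lay close (1.205 over all libraries, 0.863 to 2.02 by library). Cox7b read 49.5, 81.3 and 82.0 CPM in Control replicates 1 to 3 and 63.3, 57.4 and 57.0 CPM in OcKO replicates 1 to 3, while its testis relative Cox7b2 had 25 counts in OcKO replicate 1 and 0 in the other 5 libraries, and the muscle form Cox8b had 0 counts in all 6 libraries. A count of 0 allows up to 3 counts in a library, for counting error only.

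**Figure D1:**
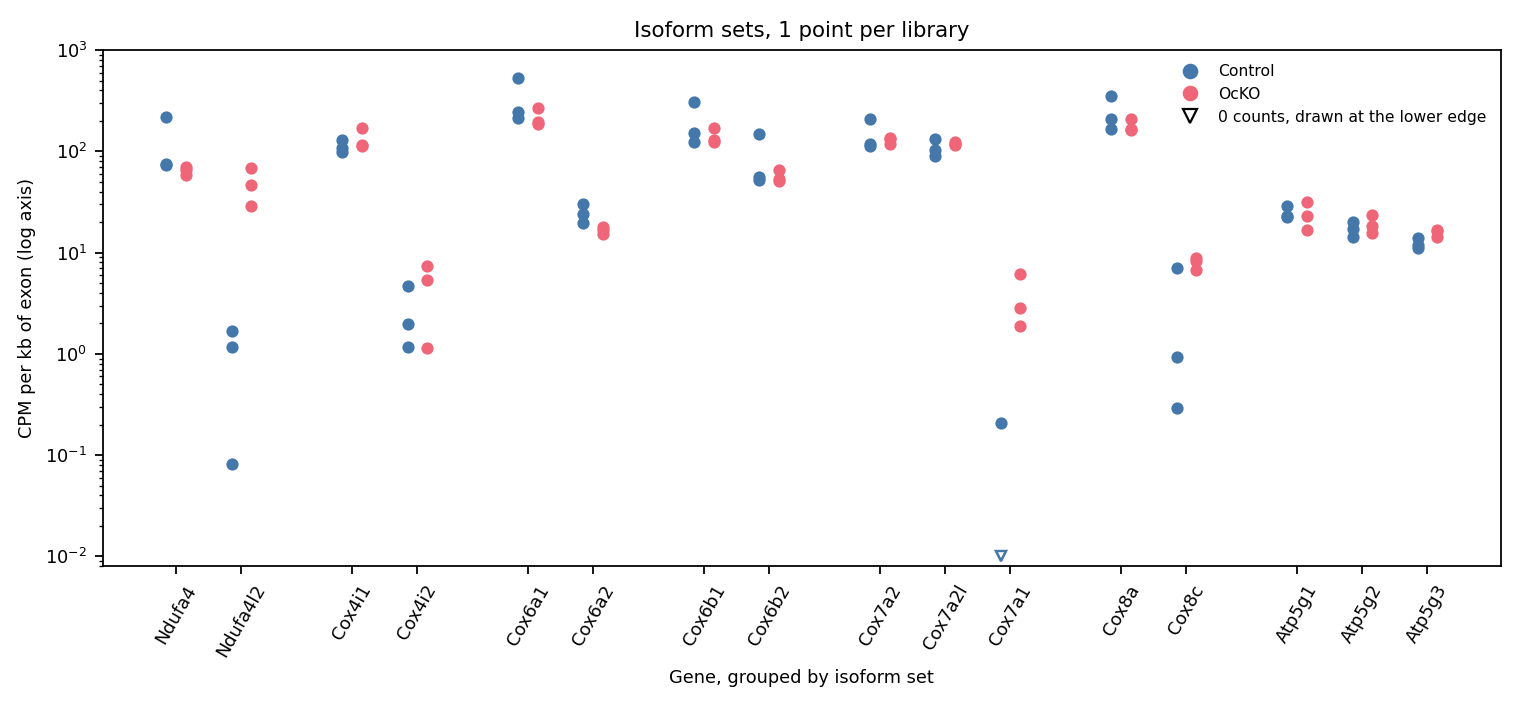
Levels of the isoform sets in CPM per kb of exon (log axis), with 1 point per library, Control in blue and OcKO in red. Open triangles mark the 2 Control libraries with 0 counts of Cox7a1; Ndufa4l2 and Cox7a1 are the genes whose Control and OcKO points are farthest apart, and 1 Control point stands above the others for Ndufa4, Cox6a1, Cox6b1, Cox6b2, Cox7a2 and Cox8a.

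Total counts ran from 36280148 to 44575222 per library. Rpa1 read 156, 155 and 140.0 CPM in Control replicates 1 to 3 and 7.76, 4.14 and 6.84 CPM in OcKO replicates 1 to 3 (log2 fold change -4.59 ± 0.31 SE, adjusted p = 0.00640 by edgeR), as the labels give the genotypes. Summed levels of 10 oocyte markers were 29252 to 47535 CPM in Control and 23775 to 29409 CPM in OcKO. Of these markers, Bmp15 (means of 6157 CPM in Control and 3216 CPM in OcKO) and Gdf9 (10522 and 6948 CPM) were lower in every OcKO library than in any Control library. The other oocyte markers overlapped between groups. Summed levels of 10 granulosa markers were 54.3 to 97.5 and 67.0 to 82.3 CPM. Cyp19a1 (means of 28.2 CPM in Control and 22.1 CPM in OcKO) and Nr5a2 (24.1 and 31.2 CPM) were the highest of these. Both overlapped between groups. Foxl2 was at 0 in all 3 Control libraries and at most 0.0492 CPM in OcKO. Of 6 theca and stroma markers the sums were 0.290 to 12.7 and 8.40 to 19.7 CPM, and of 5 blood markers 3.54 to 12.2 and 0.799 to 6.87 CPM. Of the theca and stroma markers, Cyp17a1 was at 0 in Control and 0.457 to 0.763 CPM in OcKO. Col3a1 was also higher in every OcKO library than in any Control library, while Cyp11a1, Star, Col1a1 and Pdgfra overlapped between groups. The part of other cells in the values below was not tested.

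Control replicate 2 stood apart from the other libraries for many members. It was the highest of the 6 libraries for 32 of the 82 tested members (39.0%), against 18.5% of all tested genes. By complex this held for 15 of 37 genes of complex I, 0 of 4 of II, 3 of 8 of III, 8 of 16 of IV and 6 of 17 of V. OcKO replicate 3 was the highest for 25 (30.5%, against 16.9%), OcKO replicate 1 for 16, and the other 3 libraries for 2 to 4 each. For 13 members (15.9%, against 11.8% of all tested genes) Control replicate 2 was at least 2 times the mean of the other Control libraries, among them Ndufa1, Ndufa4, Ndufa11, Uqcr11, Cox6a1, Cox6b1, Cox6b2 and Cox6c. For 6 members (7.32%, against 20.2%) it was at most 0.5 times that mean: Ndufa4l2, Ndufb10, Ndufs5, Uqcrc1, Cox7a1 and Cox8c. Its median deviation from the gene means over the 6 libraries was 0.57 for complex IV on the log2(CPM + 0.5) scale. This library also had the highest sum of oocyte markers, 47535 CPM where the others had 23775 to 32865. Its 18330 detected genes were the fewest, but close to the 18435 of Control replicate 1. Control replicate 3 had 19351 detected genes, and the OcKO libraries had 19915 to 22393, each more than any Control library. The part of these in the values of the members was not tested.

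**Figure D2:**
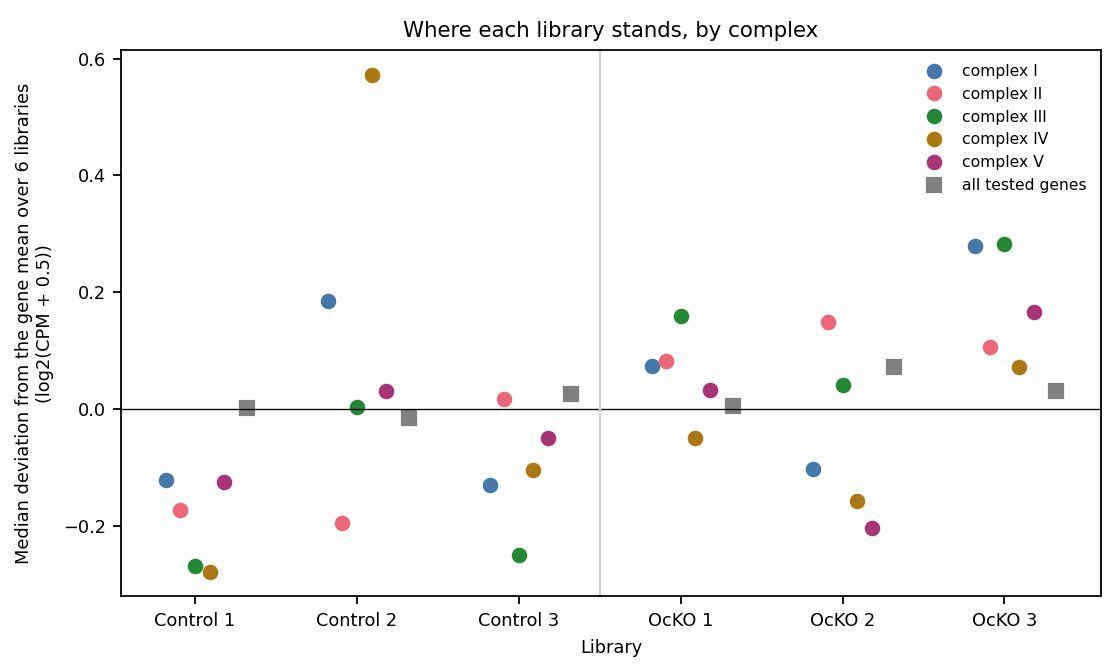
Median deviation of each complex's tested genes from their mean over the 6 libraries, on the log2(CPM + 0.5) scale, with all tested genes as grey squares. Complex IV stands at 0.57 in Control replicate 2, the largest value in the plot, while complex II is below 0 there and all tested genes stay near 0 in all libraries.

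In edgeR no nuclear subunit gene was called between Control and OcKO oocytes. Of the 84, 82 passed the filter on low counts, and 0 were called by edgeR's quasi-likelihood test at an adjusted p under 0.05, where 0.143% of the 16060 tested genes were called in either direction (0.137% higher and 0.00623% lower in OcKO). At an unadjusted p under 0.05 there were 5 members higher in OcKO (6.10% of 82, against 5.93% of all tested genes) and 0 lower (against 5.21%). The 5 were Ndufa4l2, Sdhb, Cox7a1, Atp5o and Ndufb10. DESeq2 called 3 members, Ndufa4l2, Sdhb and Cox7a1, all higher (3.66% of 82, where its calls were 2.97% of all tested genes in that direction and 1.69% in the other). No member was called by limma voom. The shares of higher members are near the background and are no result about the set. Ndufa4l2, Cox7a1 and Cox8c passed the filter only through their OcKO libraries. The median log2 fold change of the 82 was 0.11 (quartiles -0.15 and 0.31), where a positive value is higher in OcKO. Over all tested genes it was 0.01 (quartiles -0.44 and 0.53). The members were the narrower group: 63 of 82 (76.8%) lay within 0.5 of 0 on the log2 scale, against 51.4% of all tested genes. The comparison was not matched for level: a minimum of 5 CPM kept 77 members but 10094 of all 16060 genes. The part of level in this was not tested. Of the 82, 54 had a positive and 28 a negative value, which became 66 and 16 without Control replicate 2, 43 and 39 without Control replicate 3, and 46 and 36 without OcKO replicate 3. Of all 16060 tested genes, 8152 had a positive value. The median over all genes tested without Control replicate 2 was 0.07.

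The libraries of the groups did not overlap for 13 members with higher values in OcKO (15.9% of 82, against 10.7% of all tested genes) and for 3 with lower values (3.66%, against 8.67%). The 13 were Ndufa4l2, Ndufs6, Ndufs4, Ndufb4 and Ndufb10 of complex I, Sdhb of complex II, Uqcrc1 and Uqcrb of complex III, Cox5a, Cox5b and Cox7a1 of complex IV, and Atp5g3 and Atp5o of complex V. Among them Ndufa4l2 and Cox7a1 passed the filter on low counts only through their OcKO libraries, so that a difference was bound to appear. The 3 were Ndufa4, Ndufv3 and Cox6a2. Without Control replicate 2, a choice made after seeing the data, the counts were 18 (against 15.2% of all tested genes) and 4 (against 13.2%).

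**Figure D3:**
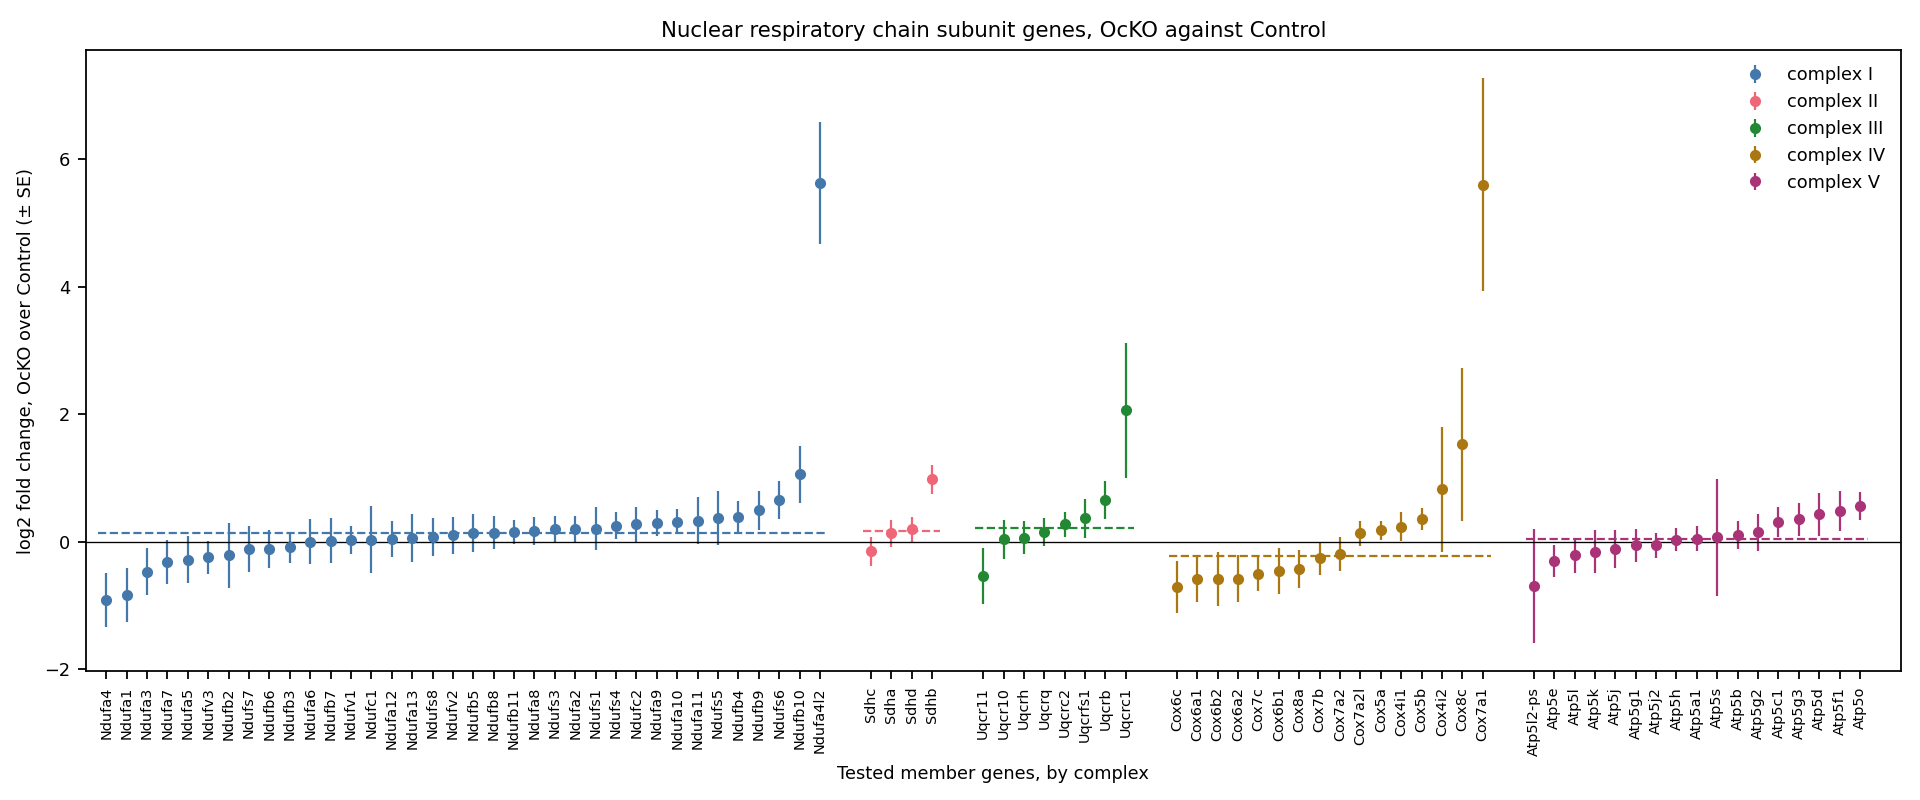
Log2 fold change of OcKO over Control with its SE for 81 of the 82 tested genes, grouped by complex and sorted within it; dashed lines are the medians of the complexes. Most points lie within 0.5 of 0, Ndufa4l2 and Cox7a1 stand far above the others with wide errors, and the median of complex IV is the only one below 0.

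By complex, the median log2 fold change was 0.13 for complex I (37 genes tested, 27 positive), 0.16 for complex II (4, 3 positive), 0.21 for complex III (8, 7 positive), -0.22 for complex IV (16, 7 positive) and 0.05 for complex V (17, 10 positive). Complex IV alone was negative, and its sign turned without Control replicate 2: the medians were then 0.23, 0.14, 0.34, 0.12 and 0.17, and that of all 82 was 0.21. Complex V was slightly negative without Control replicate 3 (-0.00338) or OcKO replicate 1 (-0.0295). Among members with a mean of at least 5 CPM the median of complex IV was -0.43. With scaling by library size alone, which raised the median of all genes to 0.18, complex IV read -0.05 and the others 0.22 to 0.38. Summed levels carried a like split. Those of complex I were 2201 ± 375 CPM for Control and 2342 ± 245 CPM for OcKO (SD, n = 3 each). Those of complex II were 645 ± 61.0 CPM for Control and 750.0 ± 25.8 CPM for OcKO (SD, n = 3 each), and its 3 OcKO sums, at 764, 766 and 720.2, lay above the 3 Control sums, at 613, 608 and 716. Complex III summed to 801 ± 163 CPM for Control and 901 ± 40.6 CPM for OcKO (SD, n = 3 each) and complex V to 1983 ± 148 CPM for Control and 2119 ± 235 CPM for OcKO (SD, n = 3 each). Complex IV summed to 1611 ± 485 CPM for Control and 1406 ± 132 CPM for OcKO (SD, n = 3 each), and its Control sums were 1268, 2166 and 1399 against 1332, 1327 and 1558 CPM in OcKO. The subunits that mitochondria encode themselves had medians of 1.14 (7 genes of complex I), 0.86 (1 of III), 1.09 (3 of IV) and 0.45 (2 of V), with 0 of the 13 called by edgeR, 8 higher at an unadjusted p under 0.05 (61.5%, against 5.93% of all tested genes), 8 called higher by DESeq2 (against 2.97%) and 0 by limma voom. The difference between the nuclear and the mitochondrial genes was not tested.

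In complex I, the 7 nuclear core subunits, which hold the flavin and the iron-sulfur clusters, all had a log2 fold change within 0.5 of 0. Their median was 0.10. Ndufv1, which binds NADH, read 87.5, 109 and 112 CPM in Control replicates 1 to 3 and 125, 81.5 and 108 CPM in OcKO replicates 1 to 3. Ndufs1, the largest core subunit, read 64.2, 43.2 and 49.8 CPM in Control replicates 1 to 3 and 76.1, 70.7 and 34.8 CPM in OcKO replicates 1 to 3. In both the groups overlapped. The 8 genes of the NADH-oxidising N module had a median of 0.15 and the 8 of the ubiquinone-reducing Q module a median of 0.04, and the other 21 members, mostly of the membrane arm, one of 0.14.

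The 2 largest log2 fold changes among the tested members were those of Ndufa4l2 and Cox7a1, which is given with complex IV. Ndufa4l2 is a gene that hypoxia induces in many cells and whose product lowers complex I activity. It read 1.60, 0.0791 and 1.12 CPM in Control replicates 1 to 3 and 65.2, 28.0 and 45.1 CPM in OcKO replicates 1 to 3, from 58, 3 and 39 counts against 2856, 1271 and 1833. All 3 OcKO libraries lay far above all 3 Control libraries, and the means of 0.934 ± 0.778 and 46.1 ± 18.7 CPM (SD, n = 3) were 49.4-fold apart. It passed the filter through its OcKO libraries alone, so that a difference was bound to appear. edgeR did not call it (log2 fold change 5.62 ± 0.96 SE, adjusted p = 0.118 by edgeR), whereas DESeq2 did. Ndufa4l2 shares 30 exonic bases with Shmt2 on the opposite strand, which averaged 52.9 CPM in Control and 92.1 in OcKO, and the counting is not stated to use strand. Per kb, Ndufa4l2 stood at 48.0 ± 19.4 in OcKO oocytes beside 64.9 ± 6.02 for Ndufa4, and the ratio of Ndufa4 to Ndufa4l2 ran from 0.975 to 2626 over single libraries.

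Ndufa4 itself read 102, 299 and 105 CPM in Control replicates 1 to 3 and 91.5, 96.8 and 80.5 CPM in OcKO replicates 1 to 3 (log2 fold change -0.91 ± 0.43 SE, adjusted p = 0.4995 by edgeR). The groups did not overlap, but Control replicate 2 was 2.90 times the mean of the other Control libraries, and leaving it out gave a log2 fold change of -0.18. Ndufa1, needed to build the membrane arm, was also highest in that library but overlapped between groups, at 61.1, 156 and 54.1 CPM in Control replicates 1 to 3 and 42.3, 57.2 and 53.1 CPM in OcKO replicates 1 to 3 (log2 fold change -0.83 ± 0.42 SE, adjusted p = 0.543 by edgeR; -0.15 without that library). Ndufb10, an accessory subunit at the far end of the membrane arm, went the other way, at 16.5, 7.88 and 26.5 CPM in Control replicates 1 to 3 and 35.0, 33.2 and 37.7 CPM in OcKO replicates 1 to 3 (log2 fold change 1.06 ± 0.45 SE, adjusted p = 0.441 by edgeR). Its OcKO values lay close together and above all Control values, of which replicate 2 was the lowest. Ndufs6, a zinc-binding subunit of the N module, read 25.3, 16.0 and 18.6 CPM in Control replicates 1 to 3 and 32.9, 27.8 and 33.7 CPM in OcKO replicates 1 to 3 (log2 fold change 0.66 ± 0.30 SE, adjusted p = 0.490 by edgeR), again without overlap. Ndufs4, whose loss causes a known respiratory chain disease in people and mice, was steady within groups, at 43.8, 39.0 and 45.2 CPM in Control replicates 1 to 3 and 51.7, 50.9 and 49.8 CPM in OcKO replicates 1 to 3 (log2 fold change 0.25). Ndufb11, the complex I gene with the highest level per kb over all libraries, read 147, 143 and 177 CPM in Control replicates 1 to 3 and 172, 149 and 198 CPM in OcKO replicates 1 to 3, with overlap. Ndufb4, a membrane arm subunit, read 27.5, 24.998 and 25.006 CPM in Control replicates 1 to 3 and 33.0, 29.0 and 39.0 CPM in OcKO replicates 1 to 3 (log2 fold change 0.38), without overlap. Ndufv3, a small subunit beside the flavin site, read 32.1, 40.8 and 31.4 CPM in Control replicates 1 to 3 and 29.7, 27.1 and 31.1 CPM in OcKO replicates 1 to 3 (log2 fold change -0.25), and its groups stayed apart by less than 1 CPM, from 31.1 to 31.4. The other 26 complex I genes overlapped between groups, with log2 fold changes from -0.47 (Ndufa3) to 0.49 (Ndufb9). The examples Ndufb4, Ndufv3, Ndufs4, Ndufs6, Ndufs1 and Ndufv1 were chosen after their values were seen.

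In complex II the iron-sulfur subunit gene Sdhb had the smallest p. It read 46.6, 55.1 and 49.5 CPM in Control replicates 1 to 3 and 102, 79.5 and 116 CPM in OcKO replicates 1 to 3, a 1.97-fold difference of the means (log2 fold change 0.98 ± 0.22 SE, adjusted p = 0.133 by edgeR). All OcKO libraries lay above all Control libraries, and the Control values differed little, but edgeR did not call the gene, while DESeq2 gave an adjusted p of 0.00393. Sdha, the flavoprotein that oxidises succinate, read 263, 303 and 356 CPM in Control replicates 1 to 3 and 399, 346 and 268 CPM in OcKO replicates 1 to 3 (log2 fold change 0.14 ± 0.21 SE, adjusted p = 0.892 by edgeR). The membrane anchors, which bind ubiquinone, also overlapped between groups. Sdhc read 77.2, 57.2 and 58.8 CPM in Control replicates 1 to 3 and 51.2, 62.6 and 60.6 CPM in OcKO replicates 1 to 3 (log2 fold change -0.15 ± 0.22 SE, adjusted p = 0.889 by edgeR), and Sdhd 226, 192 and 251 CPM in Control replicates 1 to 3 and 212, 278 and 276 CPM in OcKO replicates 1 to 3 (log2 fold change 0.19 ± 0.19 SE, adjusted p = 0.7996 by edgeR). The difference between Sdhb and the other 3 was not tested.

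**Figure D4:**
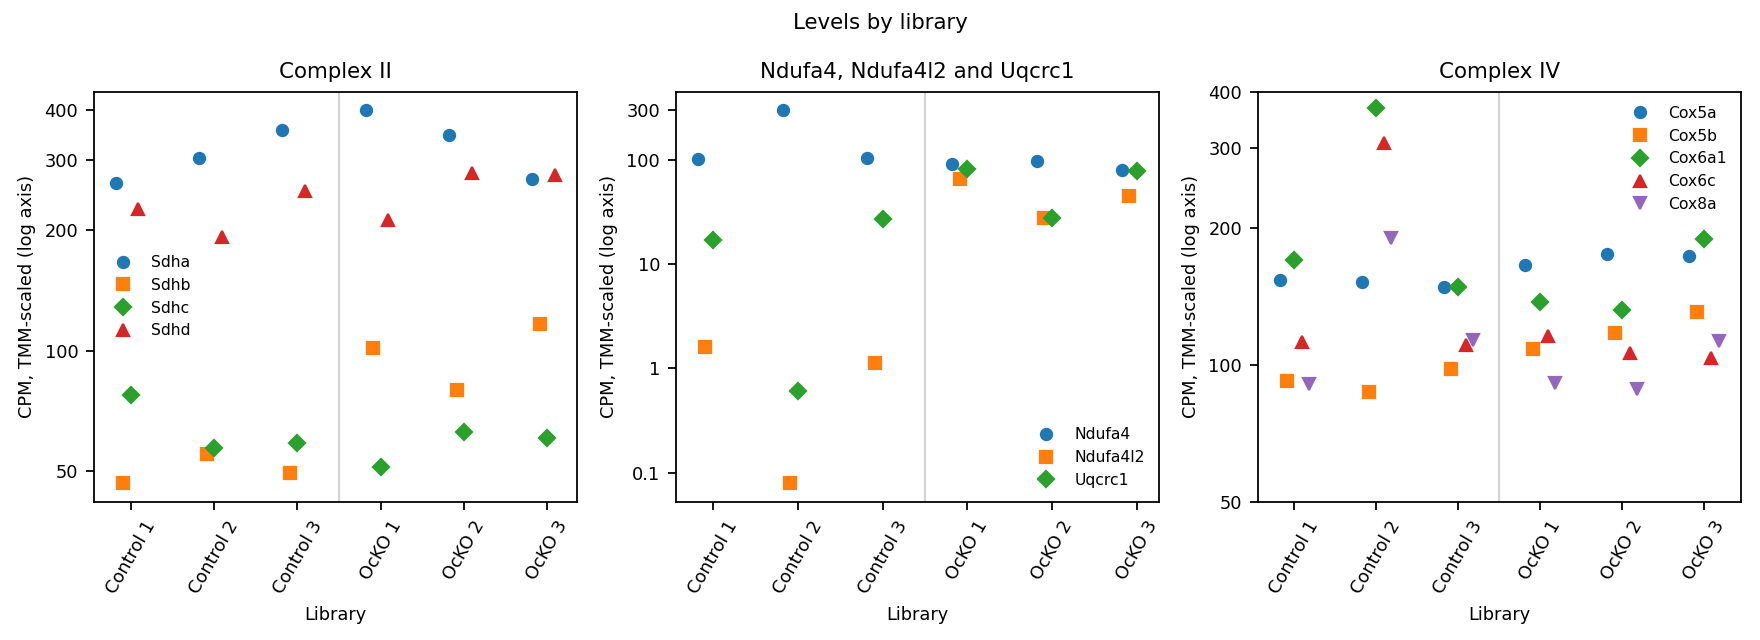
TMM-scaled CPM by library on log axes, with 1 point per library, for the complex II genes, for Ndufa4, Ndufa4l2 and Uqcrc1, and for 5 complex IV genes. Sdhb, Ndufa4l2 and Cox5b lie higher in all OcKO libraries than in any Control library, while Ndufa4, Cox6a1, Cox6c and Cox8a are high in Control replicate 2 and Uqcrc1 is near 0 there.

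In complex III, Uqcrb, which helps bind ubiquinone, read 29.3, 17.3 and 24.6 CPM in Control replicates 1 to 3 and 41.4, 35.9 and 35.0 CPM in OcKO replicates 1 to 3 (log2 fold change 0.66 ± 0.30 SE, adjusted p = 0.484 by edgeR), without overlap. Uqcrc1, a core protein facing the matrix, was named after its values were seen because Control replicate 2 stood far below the other libraries. Its groups stayed apart narrowly, since its highest Control value was 27.0 and its lowest OcKO value 28.0 CPM. It read 17.2, 0.606 and 27.0 CPM in Control replicates 1 to 3 and 81.0, 28.0 and 78.3 CPM in OcKO replicates 1 to 3 (log2 fold change 2.06 ± 1.06 SE, adjusted p = 0.549 by edgeR), so that Control replicate 2 held only 0.606 CPM of a gene at 17.2 CPM or more elsewhere. Its partner Uqcrc2 had no such gap, at 213, 217 and 259 CPM in Control replicates 1 to 3 and 309, 305 and 221 CPM in OcKO replicates 1 to 3. The Rieske iron-sulfur protein Uqcrfs1 read 60.8, 38.2 and 35.4 CPM in Control replicates 1 to 3 and 60.5, 44.0 and 68.7 CPM in OcKO replicates 1 to 3, with overlap. Uqcr11, a small peripheral subunit, had the highest mean level per kb of the complex over all libraries. In OcKO alone Uqcrh stood higher, at 168 against 149 CPM per kb. Uqcr11 read 86.4, 246 and 81.6 CPM in Control replicates 1 to 3 and 107, 80.2 and 99.6 CPM in OcKO replicates 1 to 3 (log2 fold change -0.53 ± 0.44 SE, adjusted p = 0.744 by edgeR). That value is negative through Control replicate 2 alone, since without it the log2 fold change was 0.21. The hinge protein gene Uqcrh read 159, 277 and 159 CPM in Control replicates 1 to 3 and 177, 217 and 228 CPM in OcKO replicates 1 to 3, with the same library highest. Uqcr10 and Uqcrq overlapped too, at log2 fold changes of 0.04 and 0.15. Uqcrc2, Uqcrfs1 and Uqcrh were chosen after their values were seen.

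In complex IV the signs were mixed. Cox5a and Cox5b face the matrix and were higher in every OcKO library than in any Control library, by small amounts. Cox5a read 154, 153 and 149 CPM in Control replicates 1 to 3 and 166, 176 and 174 CPM in OcKO replicates 1 to 3 (log2 fold change 0.18, SE 0.15), and Cox5b 92.3, 87.5 and 98.1 CPM in Control replicates 1 to 3 and 108, 118 and 131 CPM in OcKO replicates 1 to 3 (0.36, SE 0.18). Neither was called, and both were chosen after their values were seen. Cox4i1, the regulatory subunit that binds ATP, read 154, 169 and 201 CPM in Control replicates 1 to 3 and 177, 174 and 266 CPM in OcKO replicates 1 to 3 (log2 fold change 0.24 ± 0.22 SE, adjusted p = 0.787 by edgeR), and Cox7a2l 104, 118 and 151 CPM in Control replicates 1 to 3 and 133, 142 and 135 CPM in OcKO replicates 1 to 3 (log2 fold change 0.14 ± 0.20 SE, adjusted p = 0.878 by edgeR). Both overlapped between groups.

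The 9 complex IV genes with negative values had coding lengths of 189 to 336 bases, and most had 1 Control library far above the rest. Cox7a1 (267 bases) and Cox8c (216 bases), both with positive values, also fell in that range of lengths. Cox6c read 112, 308 and 111 CPM in Control replicates 1 to 3 and 116, 106 and 104 CPM in OcKO replicates 1 to 3 (log2 fold change -0.70 ± 0.41 SE, adjusted p = 0.607 by edgeR), with 5 libraries between 103.9 and 116 CPM. Cox6a1 read 171, 369 and 149 CPM in Control replicates 1 to 3 and 138, 132 and 189 CPM in OcKO replicates 1 to 3 (log2 fold change -0.59 ± 0.36 SE, adjusted p = 0.644 by edgeR). Without Control replicate 2 their log2 fold changes were -0.01 and -0.03. Cox6b1, which bridges the monomers of the complex IV dimer, read 88.1, 218 and 107 CPM in Control replicates 1 to 3 and 92.5, 88.3 and 120.2 CPM in OcKO replicates 1 to 3 (log2 fold change -0.46 ± 0.35 SE, adjusted p = 0.731 by edgeR; 0.07 without that library). Cox6b2 read 57.3, 164 and 61.6 CPM in Control replicates 1 to 3 and 56.2, 59.5 and 73.2 CPM in OcKO replicates 1 to 3 (log2 fold change -0.58 ± 0.42 SE, adjusted p = 0.710 by edgeR; 0.11 without it), and Cox7a2 111, 195 and 107 CPM in Control replicates 1 to 3 and 111, 127 and 126 CPM in OcKO replicates 1 to 3 (log2 fold change -0.19 ± 0.27 SE, adjusted p = 0.879 by edgeR; 0.18 without it). These 3 signs turn with the library. Cox8a read 91.1, 191 and 113 CPM in Control replicates 1 to 3 and 91.6, 88.6 and 113 CPM in OcKO replicates 1 to 3 (log2 fold change -0.43 ± 0.30 SE, adjusted p = 0.690 by edgeR; -0.04 without it).

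A few complex IV genes did not follow that library so closely. Cox7c read 65.5, 88.1 and 52.4 CPM in Control replicates 1 to 3 and 55.8, 40.4 and 48.9 CPM in OcKO replicates 1 to 3 (log2 fold change -0.51 ± 0.27 SE, adjusted p = 0.571 by edgeR; -0.26 without Control replicate 2). The muscle form Cox6a2 read 16.5, 20.7 and 13.3 CPM in Control replicates 1 to 3 and 11.3, 12.2 and 10.4 CPM in OcKO replicates 1 to 3 (log2 fold change -0.58 ± 0.37 SE, adjusted p = 0.661 by edgeR), and its OcKO libraries lay below all Control libraries with or without replicate 2. Without Control replicate 2 its log2 fold change was -0.38. Cox7b was lowest in Control replicate 1 and overlapped (log2 fold change -0.26 ± 0.26 SE, adjusted p = 0.7996 by edgeR). Its log2 fold change was -0.47 without Control replicate 1 and -0.12 without Control replicate 2. Of the rare forms, Cox7a1 had 4, 0 and 0 counts in Control and 66, 46 and 133 in OcKO, or 0.110, 0 and 0 CPM in Control replicates 1 to 3 and 1.51, 1.01 and 3.27 CPM in OcKO replicates 1 to 3 (log2 fold change 5.60 ± 1.67 SE, adjusted p = 0.248 by edgeR). It passed the filter on low counts through its OcKO libraries alone, so that a difference was bound to appear. Cox8c read 0.138, 0.448 and 3.37 CPM in Control replicates 1 to 3 and 4.25, 3.21 and 3.96 CPM in OcKO replicates 1 to 3 (log2 fold change 1.53 ± 1.20 SE, adjusted p = 0.736 by edgeR), and Cox4i2 1.57, 3.69 and 0.922 CPM in Control replicates 1 to 3 and 5.87, 0.902 and 4.18 CPM in OcKO replicates 1 to 3 (log2 fold change 0.82 ± 0.98 SE, adjusted p = 0.843 by edgeR). All 3 were below 6 CPM in each library. Without 1 library their log2 fold changes ran from 4.98 to 9.29 for Cox7a1, 0.99 to 3.70 for Cox8c and 0.29 to 1.585 for Cox4i2.

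In complex V, 15 of 17 genes (88.2%) lay within 0.5 of 0 on the log2 scale. Atp5a1, whose alpha subunit alternates with beta in the head of the enzyme, read 531, 615 and 647 CPM in Control replicates 1 to 3 and 737, 479 and 640.0 CPM in OcKO replicates 1 to 3 (log2 fold change 0.05 ± 0.20 SE, adjusted p = 0.962 by edgeR), and Atp5b, whose beta subunit carries the catalytic sites, 384, 367 and 537 CPM in Control replicates 1 to 3 and 546, 382 and 464 CPM in OcKO replicates 1 to 3 (log2 fold change 0.11). Both overlapped between groups. Atp5o encodes the OSCP subunit that ties the catalytic head to the stalk, and it had the smallest p of the complex. It read 95.3, 67.4 and 101 CPM in Control replicates 1 to 3 and 120.4, 126 and 142 CPM in OcKO replicates 1 to 3 (log2 fold change 0.56 ± 0.21 SE, adjusted p = 0.382 by edgeR), and all OcKO libraries lay above all Control libraries. Atp5o shares 287 exonic bases with Donson on the same strand, which averaged 7.94 CPM in Control and 5.89 in OcKO. Of the c-ring genes, Atp5g1 read 142, 109.6 and 113 CPM in Control replicates 1 to 3 and 113, 82.2 and 155 CPM in OcKO replicates 1 to 3 (log2 fold change -0.06 ± 0.26 SE, adjusted p = 0.967 by edgeR). Atp5g2 read 24.2, 33.5 and 28.9 CPM in Control replicates 1 to 3 and 30.8, 26.0 and 39.3 CPM in OcKO replicates 1 to 3 (log2 fold change 0.15 ± 0.29 SE, adjusted p = 0.915 by edgeR). Atp5g3 read 30.3, 24.1 and 26.1 CPM in Control replicates 1 to 3 and 36.1, 31.3 and 35.5 CPM in OcKO replicates 1 to 3 (log2 fold change 0.35 ± 0.26 SE, adjusted p = 0.713 by edgeR). Of these 3, Atp5g3 alone kept its groups apart, and narrowly, since its highest Control value was 30.3 and its lowest OcKO value 31.3 CPM. The other 11 complex V genes overlapped between groups, with log2 fold changes from -0.69 (Atp5l2-ps) to 0.48 (Atp5f1, which encodes subunit b of the stalk). The pseudogene Atp5l2-ps ranged from 0.330 to 1.61 CPM and Atp5s from 0.807 to 3.48 CPM over the 6 libraries.

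Members that were highest in Control replicate 2 were mostly short. Coding length was available for 81 of the tested members, and a split at 400 bases was chosen after seeing the values. The 38 members under 400 bases had a median log2 ratio of Control replicate 2 to the mean of Controls 1 and 3 of 0.64, and 24 of them were highest in that library. For the 43 longer members the median was -0.07, and 8 were highest there. The same split moved all tested genes far less, with medians of 0.08 (658 genes, 179 highest in Control replicate 2) and -0.08 (12373 genes, 2153 highest there). Spearman's rho of coding length with this ratio was -0.44 across the 81 members and -0.03 across 13031 tested genes with a coding length. These are correlations across genes of the same libraries, which are not independent replicates, and carry no test. The log2 fold change of OcKO over Control, which shares those libraries, followed: its median was -0.13 with 23 of 38 negative for the short members and 0.18 with 4 of 43 negative for the long ones. Over all tested genes it was 0.01 with 324 of 658 negative for short genes and 0.02 with 6046 of 12373 negative for long ones. Spearman's rho of coding length with the log2 fold change was 0.46 across the members and -0.13 across all tested genes, again without a test.

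**Figure D5:**
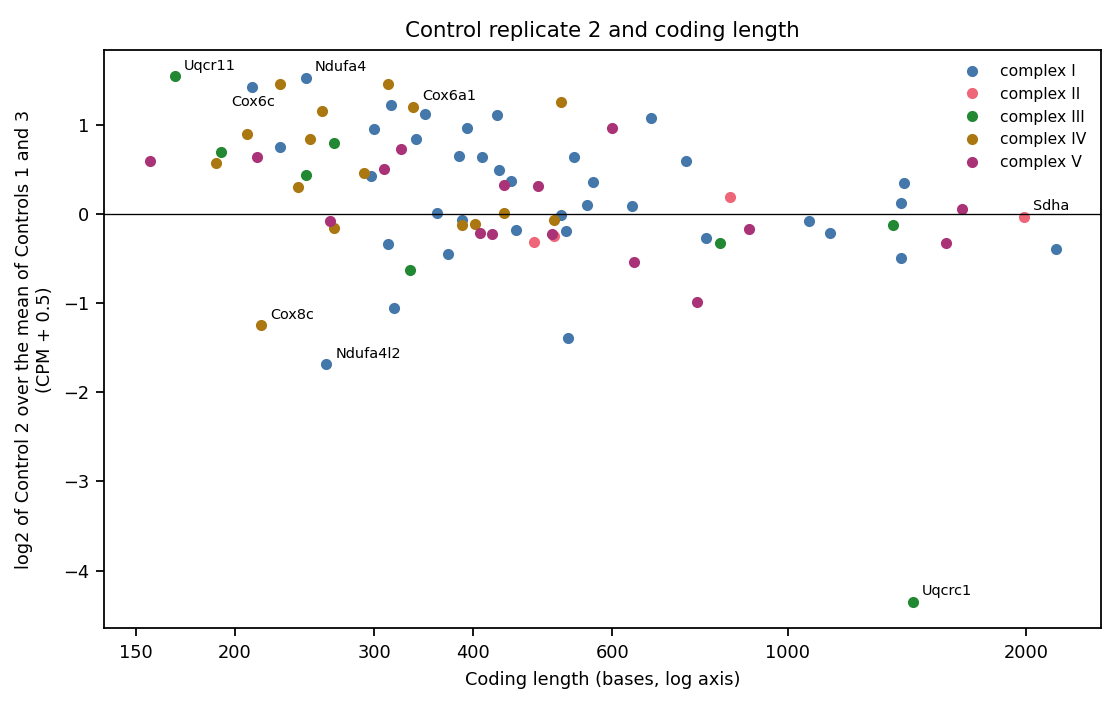
Log2 ratio of Control replicate 2 to the mean of Control replicates 1 and 3, after adding 0.5 CPM to each, against coding length in bases (log axis), with 1 point per member and colours for the complexes. Most points above 0 lie left of 400 bases, with Uqcr11, Ndufa4, Cox6c and Cox6a1 near the top, while Uqcrc1 lies lowest.

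The assembly factors, electron carriers, regulators and citric acid cycle genes were examined in the same fit. Of these 4 lists edgeR and limma voom called 0 genes at an adjusted p under 0.05, and DESeq2 called 1, Tmem126b. Of a list of 60 assembly factors, most of which build the complexes without being part of them, 55 were tested. Their median log2 fold change was 0.03, with 5 higher (Tmem126b, Sdhaf2, Cox19, Coa5 and Cox15) and 0 lower in OcKO at an unadjusted p under 0.05 (9.09% and 0%, against 5.93% and 5.21% of all tested genes). By complex the medians were 0.10 for I (18 tested), 0.17 for II (4), -0.13 for III (6), 0.27 for IV (21) and -0.01 for V (6). Sdhaf2, which attaches the flavin to Sdha, had the smallest p among the complex II factors, with 42.5 ± 8.41 CPM for Control and 70.9 ± 3.60 CPM for OcKO (SD, n = 3; unadjusted p = 0.0136 and adjusted p = 0.270 by edgeR). Its OcKO libraries lay above all Control libraries, as did those of Sdhb. Tmem126b, a factor for the membrane arm of complex I, averaged 2.03 ± 0.255 and 10.1 ± 5.91 CPM in Control and OcKO. Cox19, a copper-related factor of complex IV, averaged 6.20 ± 0.491 and 16.4 ± 6.45 CPM. Lyrm7, which inserts the Rieske protein into complex III, averaged 2.48 ± 1.12 and 5.33 ± 0.475 CPM, and Usmg5, a small subunit of the ATP synthase held in this list, 38.8 ± 17.7 and 23.9 ± 7.82 CPM. The first 3 of these had OcKO libraries above all Control libraries, and those of Usmg5 overlapped. Of the 55 tested factors, the libraries did not overlap for 9 with higher values in OcKO (16.4%, against 10.7% of all tested genes). They did not overlap for 5 with lower values (9.09%, against 8.67%).

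The 20 tested electron carrier genes (coenzyme Q synthesis, cytochrome c and related dehydrogenases) had a median of 0.18, with 2 higher (Coq5 and the cytochrome c1 gene Cyc1; 10% of the list) and 0 lower at an unadjusted p under 0.05, where all tested genes had 5.93% and 5.21%. Coq5, a methyltransferase of coenzyme Q synthesis, had the smallest p, with 12.6 ± 3.03 CPM for Control and 26.4 ± 5.53 CPM for OcKO (SD, n = 3; unadjusted p = 0.0197 and adjusted p = 0.308 by edgeR). The 14 tested regulators had a median of 0.07, with 1 higher and 1 lower (Twnk, the mitochondrial DNA helicase) at an unadjusted p under 0.05, which is 7.14% of the list each. The one higher was Yy1, at 0.333 ± 0.162 and 2.37 ± 1.26 CPM, at most 3.69 CPM in any library. The 18 genes of the citric acid cycle, which feeds the chain with NADH and succinate, had a median of 0.19, with 2 higher (11.1%) and 0 lower. Fh1, which had the smallest p, encodes fumarate hydratase, which acts on the product of complex II, and averaged 112 ± 21.8 and 162 ± 4.71 CPM. Cyc1, the complex III subunit that the naming rule misses, read 30.5, 19.7 and 22.6 CPM in Control replicates 1 to 3 and 43.5, 35.2 and 55.4 CPM in OcKO replicates 1 to 3 (log2 fold change 0.88 ± 0.31 SE, adjusted p = 0.325 by edgeR), without overlap. Ndufab1, which it misses in complex I, read 102, 129 and 125 CPM in Control replicates 1 to 3 and 113, 131 and 146 CPM in OcKO replicates 1 to 3 (log2 fold change 0.13 ± 0.19 SE, adjusted p = 0.887 by edgeR), with overlap. Coa5, Cox15, Cyc1 and Twnk were named after their values were seen.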

How the data were processed

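GV oocyte RNA of 3 Control and 3 OcKO mice was sequenced. The authors deposited raw counts of reads per gene. Per the submitters' processing notes, the tools were Trimmomatic 0.36, STAR 2.5.2b, featureCounts and Subread 1.5.2, with the build GRCm38; those notes give no annotation release, strand setting or treatment of ambiguous reads. The annotation columns of the counts deposited for single samples gave exonic lengths, and GENCODE M21 gave coding lengths. At 36280148 to 44575222 counts, 1 count was worth 0.0224 to 0.0276 CPM. Rows without a symbol (174) kept their identifier.

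All genes were fitted together in edgeR 4.0.16 (R 4.3.3, quasi-likelihood F-test), with TMM scaling and filterByExpr, which left 16060 genes, and p-values were Benjamini-Hochberg adjusted over these. Each SE was back-calculated by dividing the size of the log2 fold change by the root of F. Alternatives were DESeq2 1.42.0, limma voom 3.58.1, other scalings and filters, a replicate block and leaving out each library. The fit was also run on simulated data, and that outcome is not given here. No libraries were duplicates (lowest chi-square per degree of freedom 115). Of the members, 25 share exonic sequence with another gene, and reads there are uncertain.

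Named members are the 6 with the smallest p of each sign, the member of each complex with the smallest p and that with the highest level per length, the isoform sets and complex II, plus the smallest p of each pathway list; others named were chosen after their values were seen. The members and all lists were chosen with earlier results of these data known. Most list members are given by counts only, and some genes picked as examples are left out by name.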

Additional observations from a re-analysis of the deposited data

How the results depend on the processing

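Over all tested genes, edgeR called 22 higher and 1 lower in OcKO, DESeq2 477 and 272, limma voom 0 higher, and edgeR with a minimum of 5 CPM 60 and 8. Leaving out 1 library gave 0 to 4 higher and 0 to 2 lower. Of the members, edgeR called 0, DESeq2 called 3 higher, a minimum of 5 CPM 1 higher, and leaving out any library 0. At an unadjusted p under 0.05 the 5 higher members became 8 with DESeq2, 10 with library size alone, 9 with limma voom and 3 to 7 without 1 library, with 3 without OcKO replicate 1 and 3 without OcKO replicate 3. The 0 lower members became 1 with DESeq2, 1 with a minimum of 5 CPM, 1 without a low-count filter and 0 to 2 without 1 library, with 1 without Control replicate 1 and 2 without Control replicate 3.

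With library size alone the median log2 fold change was 0.28 for all members, 0.33 for complex II, 0.38 for complex III and 0.22 for complex V, and the log2 ratio of summed library shares was 0.38 for complex II and 0.27 for complex V. Leaving out 1 library gave medians of 0.02 to 0.21 for all members, 0.04 to 0.23 for complex I, 0.11 to 0.29 for complex II, 0.12 to 0.34 for complex III, -0.40 to 0.12 for complex IV and -0.0295 to 0.18 for complex V. For complex IV a minimum of 5 CPM gave -0.40. Signs turned with library size alone for Atp5g1 (0.13) and Sdhc (0.0203). Without 1 library they turned for Atp5a1 (-0.10 to 0.24), Atp5g1 (-0.32 to 0.18), Atp5g2 (-0.0253 to 0.32), Cox6b1 (-0.70 to 0.0678), Cox6b2 (-0.85 to 0.11), Cox7a2 (-0.33 to 0.18), Sdha (-0.00763 to 0.28) and Uqcr11 (-0.79 to 0.21). The cause was not tested. Of the values of named genes under these settings, 371 kept their sign and side of the threshold, 12 turned, as given, and 4 kept their sign and passed the threshold: Ndufa4l2 with DESeq2 and with a minimum of 5 CPM, and Sdhb and Cox7a1 with DESeq2.

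The labels number the mice 1 to 3 in both groups. Deviations of same-numbered mice from their group means correlated at -0.0370 (mouse 1), -0.0448 (mouse 2) and -0.0450 (mouse 3), so the numbers were not taken as pairs. With the mouse number as a replicate block, edgeR called 0 higher and 0 lower over all genes. There, 5 members were higher and 0 lower at an unadjusted p under 0.05, and the share of all tested genes was not counted. Depth was not limiting for most members, but Cox4i2, Cox7a1, Cox7b2, Cox8c, Atp5l2-ps and Atp5s rest on few counts. In Control replicate 2, Ndufa4l2 and Uqcrc1 also had only 3 and 23 counts.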
